A study of Mus musculus with 8 samples.

Results

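The genes described here are 10 core drivers of the cell cycle, namely the D cyclins Ccnd1, Ccnd2 and Ccnd3, the E cyclins Ccne1 and Ccne2, the mitotic cyclins Ccna2, Ccnb1 and Ccnb2, and the kinases Cdk4 and Cdk6 that pair with D cyclins. They were taken by symbol from a table of read counts, in which they are 10 of 48440 entries. A filter on low counts kept 13771 entries for testing, and 10 of the 10 genes passed it. The samples were purified cardiomyocytes of newborn C57BL6/J mice, taken at postnatal day 2, with no genetic change or treatment named in the labels. Each of 4 litters gave 1 male and 1 female heart, so there were 8 libraries, 4 per sex and 2 per litter. The design allows a comparison of the sexes, and, because a male and a female came from each litter, a comparison of the litters. Nothing in the labels says how the litters differed beyond their number, and litter cannot be told apart from the day of collection or handling. A litter here means 2 libraries that differ in sex, so the spread within a litter holds any sex difference as well.

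Cyclins are regulatory subunits that switch on cyclin-dependent kinases at set points of the cell cycle. D cyclins with Cdk4 or Cdk6 act early in G1 and phosphorylate the retinoblastoma protein, which releases E2F factors, and E cyclins with Cdk2 then carry the cell into S phase. Cyclin A2 works in S phase and G2, and cyclins B1 and B2 with Cdk1 drive mitosis, so their transcripts are found mainly in cycling cells, whereas D cyclin transcripts are also made in cells that do not divide. Cardiomyocytes of newborn mice still replicate DNA in the days after birth, many of them becoming binucleated, and then largely leave the cycle.

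Libraries held 14226342 to 24910243 counts. The cardiomyocyte label was checked against 12 marker genes such as Tnnt2 and Myh6, which together held 69579 to 92279 CPM (counts per M of TMM-scaled library counts) in the 8 libraries. Markers of other cell types were present at far lower sums, at 47 to 337 CPM for 12 fibroblast genes, 27.4 to 235 CPM for 12 endothelial genes, 5.47 to 9.77 CPM for 10 macrophage genes and 98.5 to 531 CPM for the erythroid genes. The mural list summed to 905 to 1534 CPM. Most of this came from the smooth muscle gene Acta2, which immature cardiomyocytes can also express, and from Abcc9. Their litter means were 356 to 966 CPM and 411 to 487 CPM. Litter 3 stood apart from the other litters. Its cardiomyocyte sum was 69579 and 71002 CPM against 80309 to 92279 CPM elsewhere, and 12 immediate-early genes, such as Fos and Egr1, summed to 1573 and 1660 CPM against 513 to 817 CPM. The cardiomyocyte genes did not all follow their sum. In litter 3, 6 of the 12 were lower in the test described below and 0 higher, where 14.8% and 13.6% of all tested genes were. The litter mean of Myh6 was 16510 CPM in litter 3 and 24733 to 26452 elsewhere. That of Tnnt2 was highest in litter 3, at 13041 CPM. For the 10 genes and for the lists of cell cycle genes, the litter test is therefore also given without litter 3.

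Levels differed widely between the 10 genes. Levels of different genes are compared here only as CPM per kilobase of annotated exons, averaged over the 8 libraries (mean ± SD, n = 8). Cdk4 had the highest level at 33.6 ± 2.64 CPM per kilobase, followed by Ccnd2 at 24.8 ± 3.87 and Ccnd3 at 13.8 ± 1.21. Ccnb2 at 9.34 ± 4.83, Ccna2 at 8.24 ± 4.35 and Cdk6 at 6.30 ± 1.23 came next, and these neighbours did not differ beyond their spread. Ccnb1 at 2.64 ± 1.64, Ccne1 at 2.22 ± 0.539, Ccne2 at 1.85 ± 0.767 and Ccnd1 at 1.12 ± 0.70 were the lowest, and each of them lay within the spread of its neighbour. The SD of the mitotic cyclins was large because their levels differed between litters, as described below.

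Among the D cyclins, Ccnd2 and Ccnd3 gave nearly all of the transcripts and Ccnd1 few. Per kilobase of all annotated exons, Ccnd2 made up 62.2% of the summed D cyclin level (range 56.2 to 69.9% over the 8 libraries), Ccnd3 35.1% (28 to 42.4%) and Ccnd1 2.74% (1.47 to 6.05%). These shares need no scaling between libraries, but they depend on gene length. With the length of the longest transcript in place of all annotated exons the mean share of Ccnd2 was 52.7% (range 45.9 to 61.1%) and that of Ccnd3 45.3% (37.4 to 53%). On that length Ccnd3 was above Ccnd2 in litter 4, at 50.1 and 53% against 48.3 and 45.9% in its male and female, so which of them was the higher depends there on the length used. Between the kinases, Cdk4 was far above Cdk6, whose share of their summed level was 15.8% (11 to 19.3%). The Cdk6 share was 18.2 and 17.2% in the male and female of litter 1, 19.3 and 17% in litter 2, 16.7 and 15.3% in litter 3, and 11 and 11.7% in litter 4. Both libraries of litter 4 lay below all others.

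**Figure D1:**
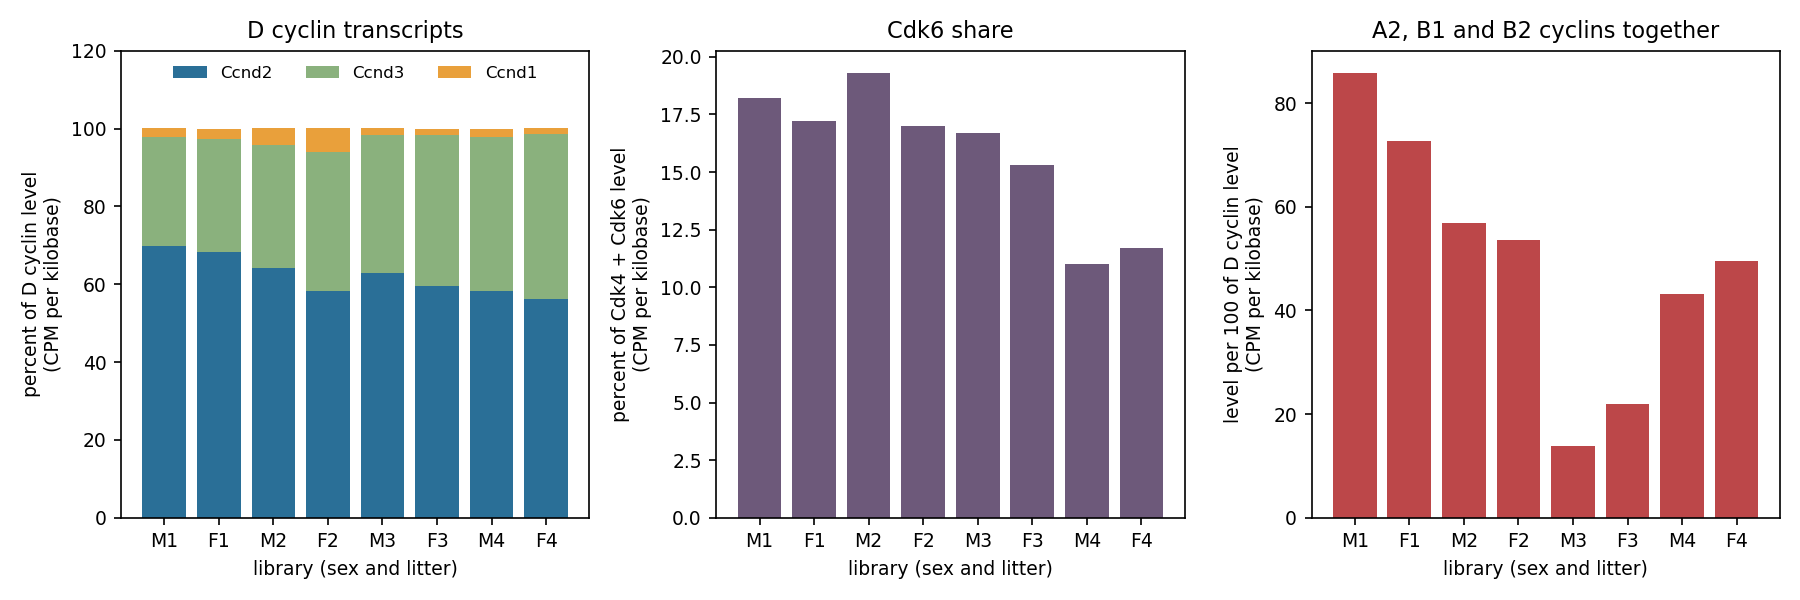
Proportions within each library, from CPM per kilobase of annotated exons; M and F stand for male and female and the number for the litter. The left panel stacks the share of each D cyclin, the middle panel gives the Cdk6 share of Cdk4 and Cdk6, and the right panel gives Ccna2, Ccnb1 and Ccnb2 together per 100 of D cyclin level, which ran from 13.9 in the male of litter 3 to 85.8 in the male of litter 1.

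Litters differed in most of these genes. In edgeR's quasi-likelihood F test of the 3 litter coefficients with sex as a term, 8 of the 10 genes passed a Benjamini-Hochberg adjusted p-value of 0.05, where 32.1% of all 13771 tested genes did. Without litter 3 the count was again 8 of 10, where 13.7% of all genes passed. The genes that did not pass were Ccne1 and Cdk4. The range over litters, meaning the log2 difference between the highest and the lowest litter, had a median of 1.11 over the 10 genes and 0.37 over all tested genes. The 10 genes were spread widely within that distribution, from Ccnb1, whose range stood at percentile 99.6 of all tested genes, to Cdk4 at percentile 26.2. All adjusted p-values below come from edgeR's test over all 13771 genes unless another tool is named. In RNA from whole cell preparations, fewer cycling cells and less cyclin RNA per cell cannot be told apart.

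**Figure D2:**
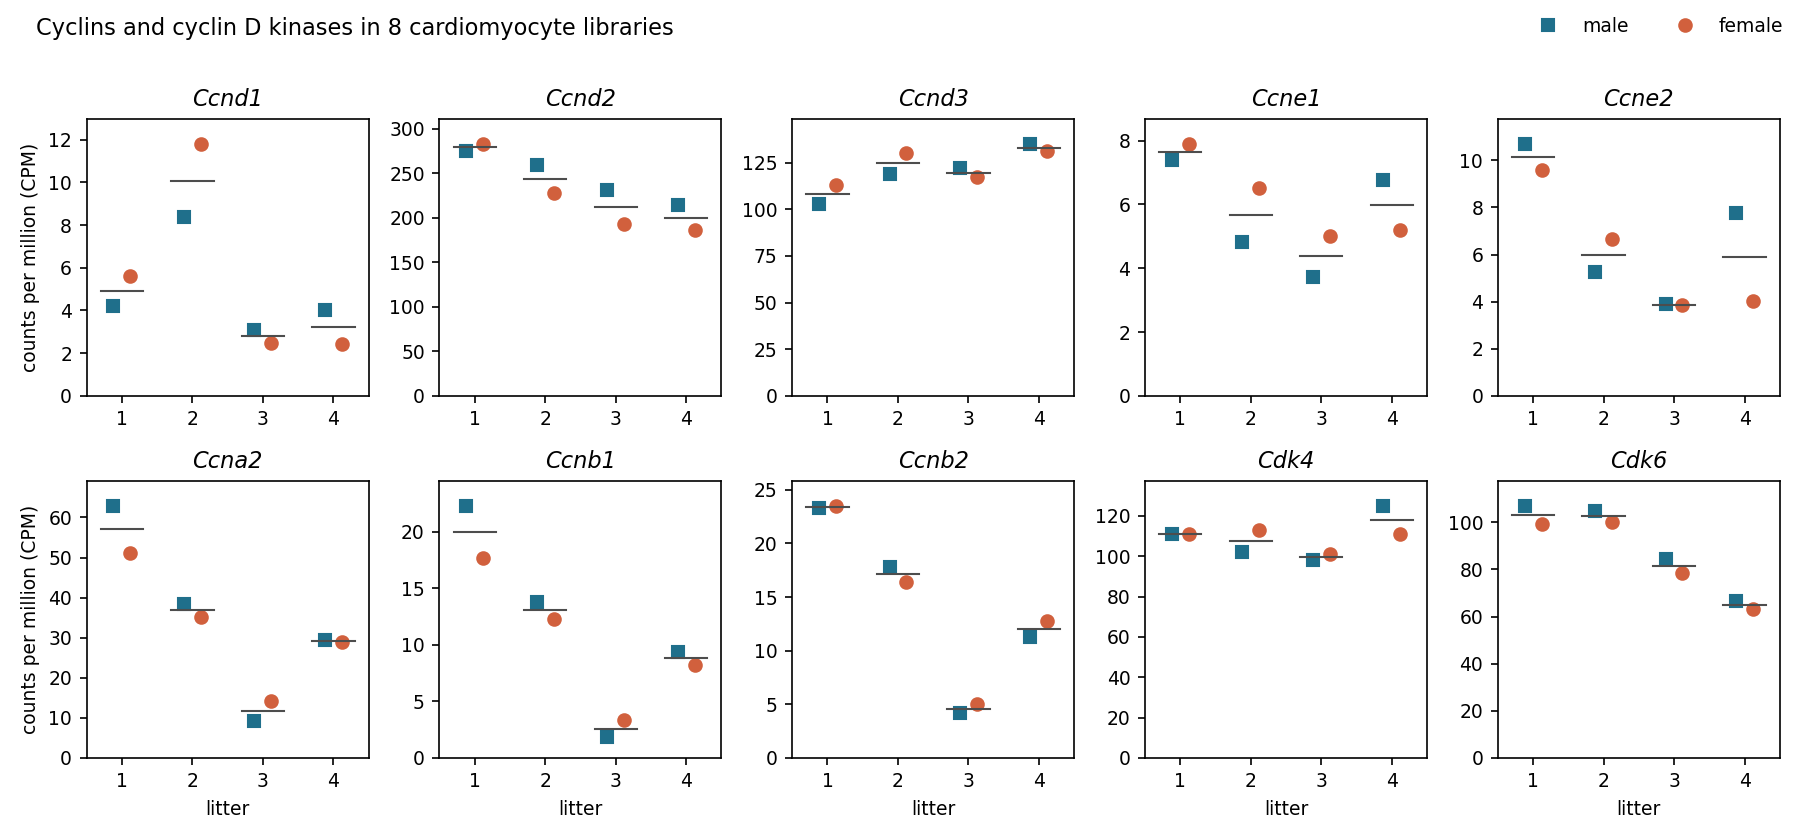
Level of each of the 10 genes in CPM (vertical axes, each from 0) in the 4 litters (horizontal axes), with squares for male and circles for female libraries and a line at the mean of the litter. Ccna2, Ccnb1 and Ccnb2 were highest in both libraries of litter 1 and lowest in both of litter 3, whereas Ccnd1 was highest in litter 2 and Cdk6 lowest in litter 4.

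Over all 4 litters the mitotic cyclins differed most. Without litter 3, Ccnd1 had the largest log2 range of the genes described here, at 1.66 (adjusted p = 0.00279). The largest range of a mitotic cyclin was then 1.18, for Ccnb1. Ccna2, which is active in S phase and G2, had 62.9 and 51.2 CPM in the male and female of litter 1, 38.5 and 35.2 in litter 2, 9.24 and 14.1 in litter 3, and 29.3 and 28.8 in litter 4. Ccnb1, the main activator of Cdk1 at entry into mitosis, had 22.3 and 17.7 CPM in litter 1, 13.8 and 12.3 in litter 2, 1.82 and 3.37 in litter 3, and 9.38 and 8.23 in litter 4. Ccnb2, a second B cyclin found largely at the Golgi, had 23.3 and 23.5 CPM in litter 1, 17.8 and 16.4 in litter 2, 4.16 and 5.02 in litter 3, and 11.3 and 12.8 in litter 4. For each of these cyclins the 4 litters stood in the same order, 1, 2, 4, 3, and no library of one litter overlapped another litter. The highest litter mean was 4.89 times the lowest for Ccna2, 7.71 times for Ccnb1 and 5.09 times for Ccnb2. Their log2 ranges were 2.32, 3.02 and 2.36, with adjusted p-values of 1.53e-05, 2.01e-05 and 6.56e-06. The lowest values rest on few reads, since Ccnb1 had 42 and 49 counts in the male and female of litter 3.

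A further test set each litter against the average of the remaining 3. These 4 comparisons share libraries and are not independent of each other. In litter 1, Ccna2 was higher by 1.31 (log2, SE 0.11, adjusted p = 2.92e-05), Ccnb1 by 1.61 (SE 0.14, 4.14e-05) and Ccnb2 by 1.26 (SE 0.09, 1.42e-05). In litter 3, Ccna2 fell by 1.79 (SE 0.14, adjusted p = 6.16e-06), Ccnb1 by 2.42 (SE 0.20, 9.17e-06) and Ccnb2 by 1.90 (SE 0.12, 1.61e-06) below the other litters. Without litter 3 the differences of litter 1 were smaller, at 0.80, 0.90 and 0.70 for Ccna2, Ccnb1 and Ccnb2, with adjusted p-values of 0.000112, 0.000265 and 0.00131. The log2 ranges over the 3 litters that are then left were 0.97, 1.18 and 0.95, with adjusted p-values of 0.000202, 0.000367 and 0.00115. The differences of these cyclins among litters 1, 2 and 4 therefore passed the test without the litter that stood apart.

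Neighbours in that order were compared directly, a comparison added after the values were seen. From litter 1 to litter 2 the differences were 0.63 for Ccna2 (SE 0.14, adjusted p = 0.0563), 0.61 for Ccnb1 (0.117) and 0.45 for Ccnb2 (0.086), so with all litters fitted the order of these litters did not pass the test. Without litter 3 the sizes were the same, and Ccna2 (adjusted p = 0.0056) and Ccnb1 (0.0176) passed while Ccnb2 (0.0555) did not. Of all tested genes, 0.232% were higher and 0.595% lower in litter 1 than in litter 2, and 0 of the 10 genes differed, while DESeq2 called 1. Without litter 3, without either of its libraries, or without the male of litter 4, edgeR called 3 of the 10, and calls over all genes went from 114 to between 252 and 279. From litter 2 to litter 4, where 4.3% of all genes were higher in litter 2, 3 of the 10 were higher, and Ccnb2 was the mitotic cyclin among them (0.50, SE 0.12, adjusted p = 0.0314). Without litter 3 each mitotic cyclin passed, with Ccna2 at 0.34 (adjusted p = 0.0457), Ccnb1 at 0.57 (0.0171) and Ccnb2 at 0.50 (0.0228). The call of Ccnb2 with all litters is fragile, since it passed under 9 of 16 alternatives. It was lost when any library of litter 2 or 4 was left out, with values of 0.38 to 0.63, without litter 1 or its male, and with DESeq2. Leaving out either of the females of litters 2 and 4 left only 1 of the 10 past the threshold, and without litter 3 or either of its libraries 6 passed. Calls over all genes went from 901 to 213 and 294 without those females, and to between 1070 and 1108 in the fits that leave out libraries of litter 3. From litter 4 to litter 3 the mitotic cyclins formed 3 of 3 genes called higher in litter 4, where 10.5% of all genes were, at 1.35 for Ccna2 (SE 0.17, adjusted p = 0.000327), 1.84 for Ccnb1 (SE 0.24, 0.000461) and 1.41 for Ccnb2 (SE 0.14, 0.000135).

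The promoters of the B cyclins are shown because these genes differed together across litters and because B cyclin promoters are known for repeated CCAAT boxes, which the factor NF-Y binds. The letters come from RefSeq on GRCm38.p6 and are written 5′ to 3′ on the minus strand, which is the strand of both genes. The Ccnb1 stretch is chr13:100786549-100786656, 170 to 63 bases upstream of the RefSeq start, and the Ccnb2 stretch is chr9:70421571-70421724, 170 to 17 bases upstream. In GENCODE M21, used for gene positions below, Ccnb1 starts further upstream, at 100786570. The second CCAAT of the Ccnb1 stretch lies inside that gene model. Capitals mark CCAAT and, in Ccnb2, TTTGAA, the letters of the cell cycle homology region, a motif of mitotic genes that the DREAM complex and, later in the cycle, MuvB with B-Myb bind. This TTTGAA lies 167 to 162 bases upstream, further from the start than the CCAAT boxes. Bases past the RefSeq start were not searched, so a motif there would be missed in either gene.
Ccnb1: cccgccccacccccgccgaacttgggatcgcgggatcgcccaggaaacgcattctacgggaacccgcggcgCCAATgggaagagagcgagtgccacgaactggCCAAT
Ccnb2: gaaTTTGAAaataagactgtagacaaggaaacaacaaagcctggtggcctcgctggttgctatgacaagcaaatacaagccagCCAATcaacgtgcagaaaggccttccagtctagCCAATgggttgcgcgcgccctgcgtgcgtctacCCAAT
The Ccnb1 stretch holds 2 CCAAT boxes whose first bases lie 32 bases apart, and the Ccnb2 stretch holds 3 that are 33 and 33 bases apart. Among 32851 RefSeq promoter windows of the 250 bases before a start, CCAAT on either strand occurs in 33.8%, at least 2 copies in 10.1% and at least 3 in 2.79%, and TTTGAA in 16%. Promoter entries were matched for 6 of the 10 genes. The remaining 4 are Ccna2, Ccnd1, Ccnd2 and Ccne2. Of the other matched genes, Ccnd3 has 1 CCAAT in the window of its second start. The E2F sites TTTCCCGC, TTTCGCGC, TTTGCCGC and TTTGGCGC, searched on both strands and present in 1.86% of all windows, have no match in the windows of the 6 genes. A match of letters is a description and does not show that a factor binds there.

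The E cyclins moved less. Ccne2, an activator of Cdk2 at the G1 to S transition, had 10.7 and 9.58 CPM in the male and female of litter 1, 5.28 and 6.66 in litter 2, 3.90 and 3.85 in litter 3, and 7.76 and 4.03 in litter 4. Litter 1 lay above and litter 3 below all other libraries, and the libraries of litter 4 were spread over most of the gap. Its log2 range was 1.40 with an adjusted p-value of 0.00666. It was higher in litter 1 by 0.99 (SE 0.18, adjusted p = 0.00459) and in litter 3 it fell by 0.87 (SE 0.22, adjusted p = 0.0124). Without litter 1 the range was 0.64 and did not pass (adjusted p = 0.18), and the difference of litter 3 did not pass either, at -0.61 (adjusted p = 0.0978). Ccne1, the other E cyclin, had 7.39 and 7.90 CPM in litter 1, 4.82 and 6.52 in litter 2, 3.73 and 5.02 in litter 3, and 6.76 and 5.21 in litter 4. The libraries of litter 1 were again the highest, and the remaining litters overlapped. The litter test missed the threshold at a log2 range of 0.82 (adjusted p = 0.0506), while the separate comparisons passed it for litter 1 at 0.54 (SE 0.16, adjusted p = 0.0457) and for litter 3 at -0.56 (SE 0.18, adjusted p = 0.0395). These calls of Ccne1 lie close to the threshold. The call of litter 1 did not pass without litter 3, at 0.40 (adjusted p = 0.162), and that of litter 3 did not pass without litter 1, at -0.43 (adjusted p = 0.168).

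The D cyclins each had a pattern of their own. Ccnd1, the D cyclin that growth factors induce in many cell types, had 4.22 and 5.63 CPM in the male and female of litter 1, 8.36 and 11.8 in litter 2, 3.08 and 2.48 in litter 3, and 4.02 and 2.43 in litter 4. Both libraries of litter 2 lay above all others, and litters 3 and 4 overlapped. The log2 range was 1.82 (adjusted p = 0.000992), and litter 2 exceeded the mean of the others by 1.51 (SE 0.20, adjusted p = 0.00116). In litter 3 it fell by 0.93 below the others (SE 0.25, adjusted p = 0.0153), a difference that was 0.50 in size and did not pass without litter 2 (adjusted p = 0.161). Without litter 2 the range was 0.82 and missed the threshold (adjusted p = 0.06). Counts of Ccnd1 ran from 36 to 263 per library.

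Markers of some other cells were also high in litter 2. The 12 endothelial genes summed to 138 and 235 CPM in litter 2 against 27.4 to 100 CPM in the other libraries, and 12 of 12 were called higher in litter 2, where 3.3% of all tested genes were. The 12 fibroblast genes summed to 337 and 236 CPM in litter 2, and 10 of 12 were called higher, while litter 3 had 69.3 and 47 CPM. Of 9 mural genes 4 were called higher in litter 2, and of 7 tested epicardial genes 2 were. Of the macrophage and erythroid genes 0 were called higher there. In litter 4, where Ccnd1 was low, the fibroblast sum was 275 and 139 CPM in the male and female, and 6 of 12 genes were called higher, where 4.71% of all genes were. None of these lists had a gene at 0 in all libraries, and their part in the level of Ccnd1 was not tested.

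Ccnd2, the most abundant D cyclin here, had 275 and 283 CPM in the male and female of litter 1, 259 and 228 in litter 2, 231 and 193 in litter 3, and 214 and 186 in litter 4. Litter 1 lay above all other libraries and the others overlapped. Its log2 range of 0.49 passed the test (adjusted p = 0.00302). It was higher in litter 1 by 0.37 (SE 0.06, adjusted p = 0.00355) and in litter 4 it fell by 0.29 (SE 0.07, adjusted p = 0.0209). Without the female of litter 1 the difference of that litter did not pass (adjusted p = 0.216). Without litter 1 that of litter 4 was -0.19 and did not pass (adjusted p = 0.112). Ccnd3, the D cyclin with a broad role in differentiating cells, had 103 and 113 CPM in litter 1, 119 and 130 in litter 2, 122 and 117 in litter 3, and 135 and 131 in litter 4. It was lowest in litter 1 and highest in litter 4, where Ccnd2 was highest and lowest. Its log2 range was 0.30 (adjusted p = 0.0476), and it fell by 0.22 in litter 1 (SE 0.06, adjusted p = 0.0417). Both calls lie close to the threshold, and the litter test of Ccnd3 passed under 7 of 18 alternatives of processing or of the libraries used.

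Cdk6 and Cdk4, the kinases of the D cyclins, differed in how they varied. Cdk6 had 107 and 99.5 CPM in the male and female of litter 1, 105 and 100 in litter 2, 84.6 and 78.7 in litter 3, and 66.7 and 63.3 in litter 4. Litters 1 and 2 overlapped, litter 3 lay below them and litter 4 below all. The log2 range was 0.66 (adjusted p = 0.000135). In litter 4 it fell by 0.55 (SE 0.06, adjusted p = 0.00103), and it was higher by 0.33 in litter 1 (SE 0.06, adjusted p = 0.00276) and by 0.33 in litter 2 (SE 0.06, adjusted p = 0.00594). Without litter 4 the differences of litters 1 and 2 were 0.17 (adjusted p = 0.0798) and 0.16 (adjusted p = 0.156). Compared directly, Cdk6 was lower in litter 4 than in litter 3, with a difference of -0.33 (SE 0.07, adjusted p = 0.00814), where 10.3% of all genes were lower. The mitotic cyclins differed in the opposite direction there. Cdk4 had 111 and 111 CPM in litter 1, 102 and 113 in litter 2, 98.1 and 101 in litter 3, and 125 and 111 in litter 4. Its litter means lay within a factor of 1.18 of each other, and the log2 range of 0.24 did not pass the test (adjusted p = 0.154).

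**Figure D3:**
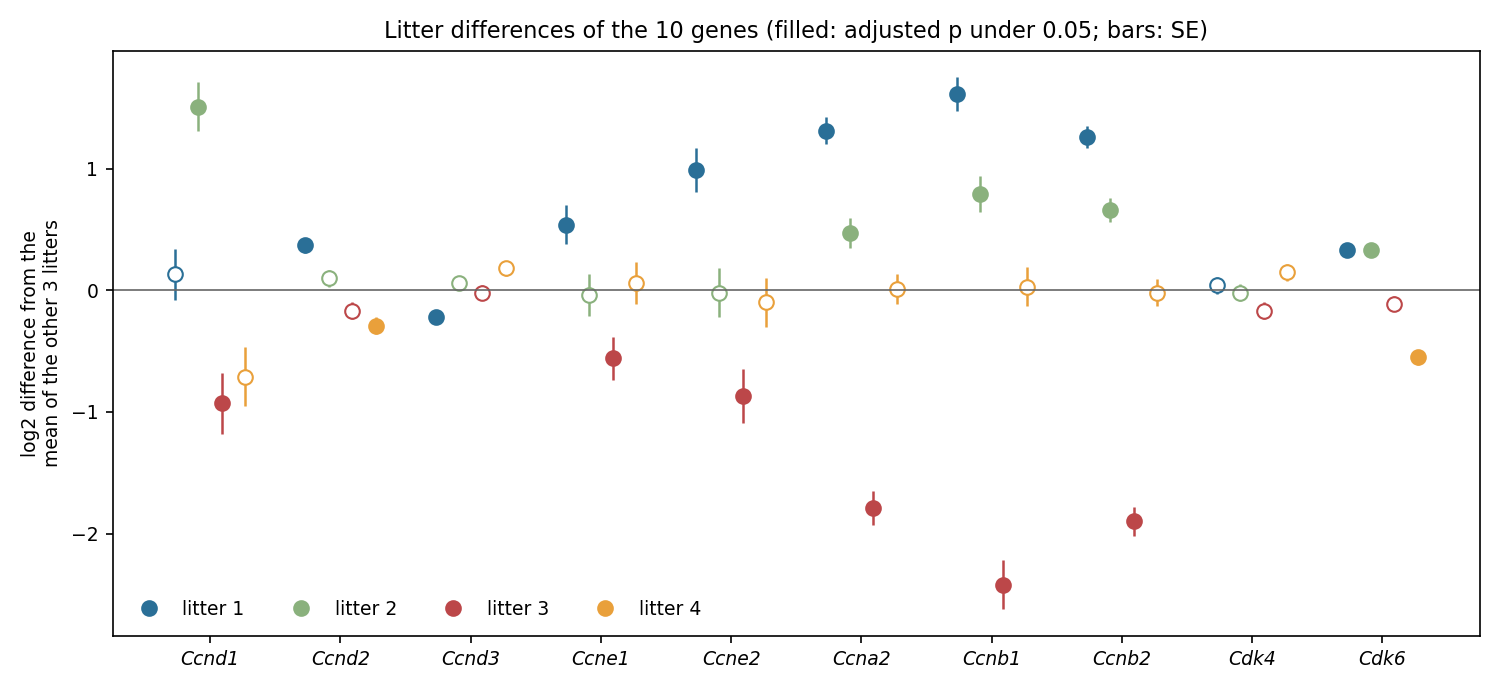
Log2 difference of each litter from the mean of the other 3 litters (vertical axis) for the 10 genes, with bars of 1 SE and filled points where the adjusted p-value is under 0.05. The mitotic cyclins span from -2.42 for Ccnb1 in litter 3 to 1.61 for Ccnb1 in litter 1, while Cdk4 has no filled point.

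By litter, 7 of the 10 genes were higher in litter 1, where 7.86% of all tested genes were, and 1, Ccnd3, was lower, where 5.41% were. Of the 10 genes 4 passed without the male of litter 1 and 3 without its female, and over all genes the calls of that litter went from 1827 to 359 and 411. Among the markers, 4 of 12 cardiomyocyte and 3 of 12 fibroblast genes were higher and 6 of 12 immediate-early genes lower in litter 1, and their part in its cyclin levels was not tested. In litter 2, 5 were higher against 3.3% of all genes and 0 were lower against 0.879%. The 5 were Ccnd1, Ccna2, Ccnb1, Ccnb2 and Cdk6. Only 1 of the 10 passed without the male or without the female of litter 2, and 2 without litter 3, while calls over all genes went from 575 to 241, 153 and 271. The litter 2 values of Ccna2, Ccnb1 and Ccnb2 were 0.47, 0.79 and 0.66 with adjusted p-values of 0.0466, 0.0118 and 0.00246, and without litter 3 they were -0.15, -0.02 and 0.03 and did not pass. In litter 3, 0 were higher and 6 lower, against 13.6% and 14.8% of all genes. The 4 that did not pass there were Ccnd2, Ccnd3, Cdk4 and Cdk6, with differences of -0.17, -0.02, -0.17 and -0.11. In litter 4, 0 were higher and 2 lower, against 4.71% and 5.8%. Leaving out either of the females of litters 1 and 4 made this count 1, and without litter 3 it was 6, with Ccna2 at -0.65 and Ccnb1 at -0.87. Over all genes the calls of litter 4 went from 1447 to 740, 433 and 1984 in these fits. Of the 12 cardiomyocyte markers 6 were higher and 2 lower in litter 4. The median difference of the 10 genes was 0.45, 0.21, -0.71 and 0.00 in litters 1 to 4, against 0.00, 0.00, 0.00 and 0.01 over all tested genes.

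The balance of mitotic to D cyclins summarises these patterns within a library. Ccna2, Ccnb1 and Ccnb2 together had 85.8 and 72.7 per 100 of D cyclin level in the male and female of litter 1, 56.8 and 53.6 in litter 2, 13.9 and 22 in litter 3, and 43.1 and 49.5 in litter 4. The litters do not overlap in this measure, which involves no scaling between libraries. With the length of the longest transcript its mean over the 8 libraries was 35.4 in place of 49.7 per 100, and the litters did not overlap either. The E cyclins had 14 and 12.9 per 100 of D cyclin level in litter 1, 7.75 and 10.5 in litter 2, 6.45 and 8.71 in litter 3, and 12.2 and 8.85 in litter 4, where only litter 1 lay apart from the rest.

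The kinases that serve the E, A and B cyclins differed from each other. Cdk1, the kinase of the A and B cyclins, had litter means of 31.9, 20.4, 10.7 and 17.5 CPM in litters 1 to 4, the same order as its cyclins, with a log2 range of 1.62 (adjusted p = 0.000391) that was 0.86 without litter 3 (adjusted p = 0.00204). Cdk2, the kinase of the E cyclins, had 62.3, 59.5, 54.9 and 61.6 CPM and did not pass (adjusted p = 0.262). The other cyclins lay near the level of all genes, of which 32.1% passed the litter test with a median range of 0.37. Of these cyclins, 7 of 16 tested passed, with a median range of 0.31, and without litter 3 1 of 16 did. Ccnf, a cyclin with an F-box that targets proteins for degradation, had a range of 2.49 that was 0.81 without litter 3 (adjusted p = 0.0844). Ccng2, which is linked to cell cycle exit, had litter means of 20.5, 23.8, 35.1 and 28.7 CPM with its highest level in litter 3. Of the other cyclin-dependent kinases, 6 of 16 passed, with a median range of 0.30, and 2 of 16 without litter 3.

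Regulators of these kinases were tested by list, where 32.1% of all genes passed the litter test, or 13.7% without litter 3. Of the phosphatases, kinases and Cks subunits that act on cyclin-dependent kinases, 5 of 8 passed, with the largest ranges for Cdc25c (2.75), which activates Cdk1, Plk1 (2.59), a mitotic kinase, and Cks2 (2.32). These 3 had their lowest litter mean in litter 3, and without it their ranges were 1.13, 0.82 and 1.04, with adjusted p-values of 0.0103, 0.013 and 0.00273. The inhibitors did not move as a group, although 5 of 5 tested passed, and 3 of 5 without litter 3. Cdkn2c, an inhibitor of Cdk4 and Cdk6, had 22.9 CPM in litter 1 and 10.9 in litter 3, whereas Cdkn1c, an inhibitor with high levels in the embryo, had its lowest mean of 6.10 CPM in litter 1 and means of 9.97 to 11.0 elsewhere. In litter 3, 1 of the inhibitors was called higher and 2 lower, against 13.6% and 14.8% of all genes. The higher one was Cdkn1b, a general inhibitor, chosen after its values were seen, at 92.5 CPM in litter 3 and 64.9 to 66.2 in the other litters.

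Further lists held genes that act downstream of the D cyclin kinases, and their counts are read against the 32.1% of all genes that passed, or 13.7% without litter 3. For calls in 1 direction the shares of all genes were 7.86% higher in litter 1, and 13.6% higher and 14.8% lower in litter 3. Of the Rb and E2F families 10 of 13 passed, led by E2f2 (range 1.81), E2f7 (1.66) and Rbl1 (1.46), and in litter 3 7 were lower and 3 higher. Without litter 3, 2 of 13 passed. S phase genes passed in 16 of 16 cases, with a median range of 1.21, led by Rrm2 (1.68), the ribonucleotide reductase subunit, and Mcm5 (1.52), a part of the replicative helicase. In litter 1 14 of the 16 were higher and in litter 3 16 were lower. The count higher in litter 1 was 5 of 16 when litter 3 was left out, where 574 of 13899 tested genes were higher. Without litter 3, 4 of 16 S phase genes passed, with a median range of 0.44, and Rrm2 was among them (0.59, adjusted p = 0.00669) while Mcm5 was not (0.41, 0.175). G2/M genes passed in 18 of 18 cases, with a median range of 2.38, led by Cenpe (2.98), a kinetochore motor, and Hmmr (2.94). In litter 1 18 of 18 were higher and in litter 3 18 of 18 lower. Without litter 3, 17 of 18 G2/M genes passed, with a median range of 1.01 where that of all genes was 0.25. In that fit 17 of 18 were higher in litter 1. Of the ubiquitin ligase genes that control cyclin turnover 7 of 11 passed, led by Cdc20 (2.42) and Ube2c (2.17) of the anaphase-promoting pathway and Skp2 (1.29), and 2 of 11 without litter 3. Of the activators of mitotic genes 3 of 9 passed, Foxm1 (2.11), Mybl2 (1.44) and Lin54 (0.60), a share near that of all genes, and without litter 3 1 of 9, Foxm1, at 0.77 (adjusted p = 0.00656). The subunits of NF-Y did not pass, with ranges of 0.22 for Nfya, 0.04 for Nfyb and 0.13 for Nfyc.

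**Figure D4:**
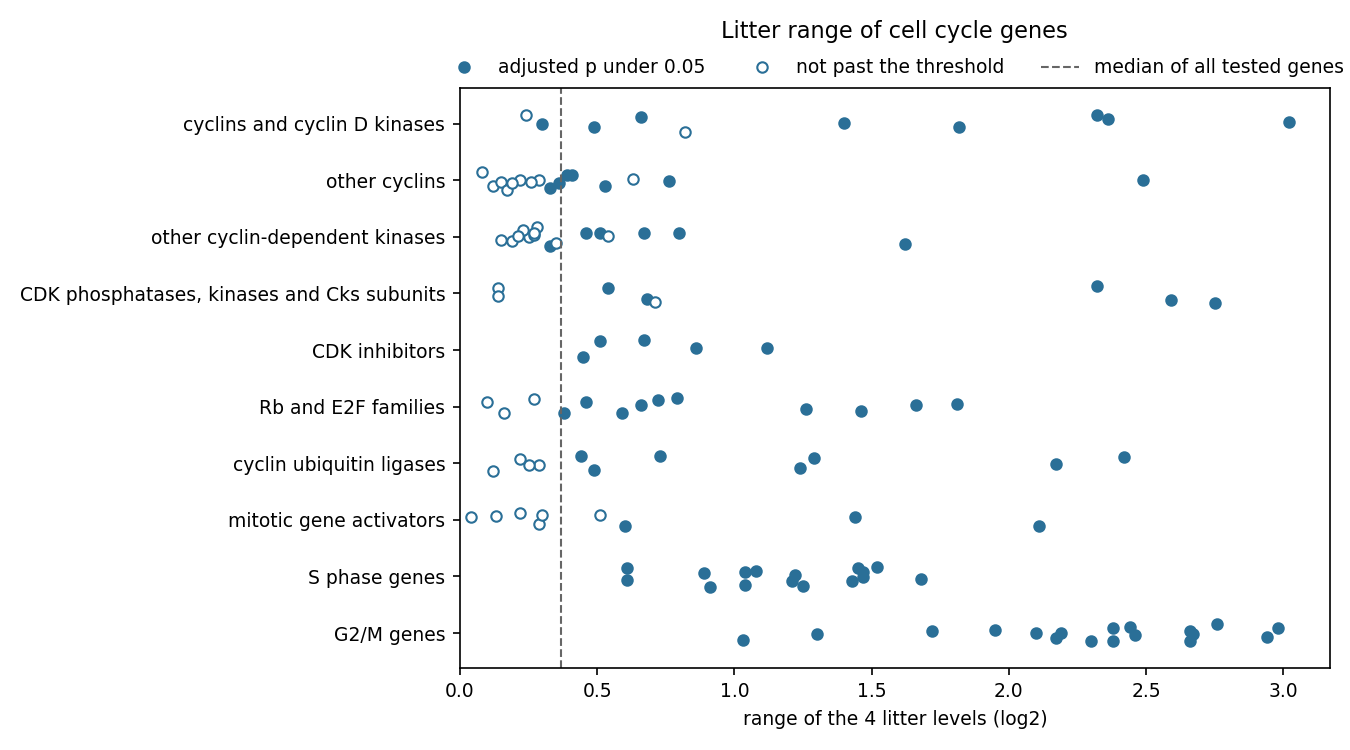
Log2 range over the 4 litters (horizontal axis) of each tested gene in the lists of cell cycle genes, with filled points past an adjusted p-value of 0.05 and a dashed line at the median of all tested genes, 0.37. The G2/M genes lie furthest to the right with a median of 2.38, close to the ranges of Ccna2 and Ccnb2.

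Several marker lists changed along with the mitotic cyclins in litter 3. The cardiomyocyte genes fell in 6 of 12 cases there, fibroblast genes in 10 of 12, endothelial genes in 9 of 12 and mural genes in 5 of 9, where 14.8% of all tested genes fell, and their summed levels in litter 3 were 69579 and 71002, 69.3 and 47, 29.9 and 30.9, and 929 and 905 CPM. The immediate-early genes were higher in 10 of 12 cases, where 13.6% of all genes were. In litter 3, erythroid genes summed to 531 CPM (male) and 185 CPM (female), with 98.5 to 246 CPM elsewhere. Of 7 tested epicardial genes 1 was higher and 2 were lower in litter 3. Macrophage and Schwann cell genes summed to under 14 CPM in each library, and 1 gene of the Schwann list was at 0 in all libraries. The part of these changes in the cyclin levels of litter 3 was not tested.

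Between the sexes, 0 of the 10 genes passed the test, where 0.0436% of all tested genes did. In edgeR's test without a litter term the adjusted p-value was 1 for each of them. At an unadjusted p-value of 0.05, 306 genes and 0 of the 10 passed, and DESeq2 called 9 genes and 0 of the 10. Male and female libraries overlapped for each gene. The median male minus female difference was 0.05 on the log2 scale over the 10 genes and 0.00 over all genes. Because litters differed so much in the mitotic cyclins, the 95% intervals of their sex differences were wide, at -1.10 to 1.32 for Ccna2, -1.33 to 1.68 for Ccnb1 and -1.26 to 1.19 for Ccnb2. The intervals were narrowest for Cdk4 (-0.22 to 0.22) and Ccnd3 (-0.27 to 0.20).

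With litter as a term, which compares each male with the female of its litter, 0.211% of all genes passed and again 0 of the 10. Intervals of the mitotic cyclins narrowed to -0.31 to 0.37 for Ccna2, -0.32 to 0.55 for Ccnb1 and -0.33 to 0.23 for Ccnb2. Ccnd2 had the smallest p-value of the 10, with a difference of 0.15 (SE 0.06, unadjusted p = 0.0205, adjusted p = 0.365), and was higher in the male in 3 of 4 litters. Cdk6 was higher in the male in 4 of 4 litters, with a difference of 0.09 (SE 0.05, adjusted p = 0.517). Some markers of other cells differed by sex in this fit. Of 12 fibroblast genes 6 were higher in males, among them Dcn by 1.14 (SE 0.11, adjusted p = 0.000315) and Col1a1 by 0.78 (SE 0.09, 0.00196), with Col1a2, Col3a1, Postn and Col5a1. Of 12 endothelial genes 1, Cldn5, was lower in males, at -2.21 (SE 0.35, adjusted p = 0.0259). The part of these cells in the sex differences of the 10 genes was not tested. Sex differences of the size these intervals allow are not excluded by 4 libraries per sex.

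**Figure D5:**
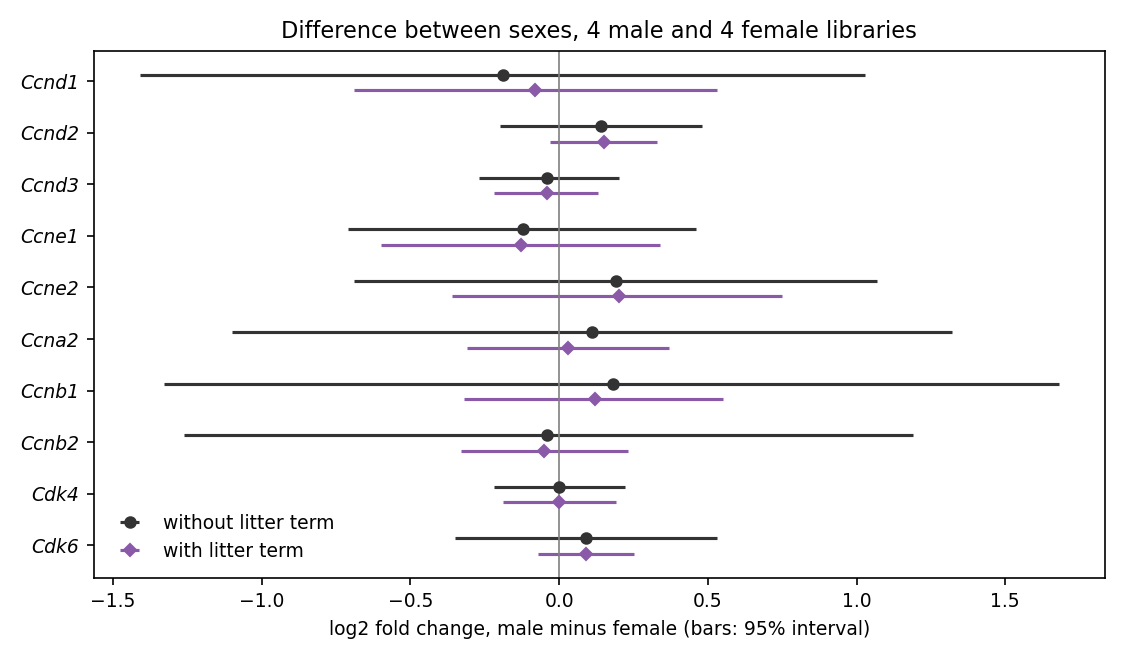
Log2 fold change of male minus female (horizontal axis) for the 10 genes, from 4 male and 4 female libraries, without litter as a term (circles) and with it (diamonds), with 95% intervals as bars. Every interval spans 0, and those of Ccna2, Ccnb1 and Ccnb2 are much narrower with litter as a term.

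The genes most like each member over the 8 libraries were found by Pearson's r of log2 CPM. These values describe 8 libraries that form 4 litter pairs and share their depth and preparation, so they are given without a test. Ccna2 was closest to Nuf2 (r = 0.999), Racgap1 (0.998) and Cdca3 (0.997), and Ccnb1 to Nuf2 (0.999), Knstrn (0.997) and Cdca3 (0.997). Ccnb2 was closest to Fam64a (0.995), Tubb4b (0.995) and Cdc20 (0.994). Among the genes closest to Ccne1 were Mcm7 (0.973) and Mcm8 (0.972), and Ccne2 was closest to Cntln (0.976), Cenpk (0.968) and Exo1 (0.967). The D cyclins had other neighbours. Ccnd1 was closest to Rnf144a (0.98), Itpripl2 (0.973) and Igfbp3 (0.972), Ccnd2 to Sntb1 (0.992), Tex9 (0.973) and Agk (0.972), and Ccnd3 to Mvp (0.991), Ctdsp1 (0.969) and Fam192a (0.968). Cdk6 was closest to Mdn1 (0.985), Cdc42bpa (0.981) and Soga1 (0.979), and Cdk4, which varied least, to Gm26885 (0.965), Dnajc15 (0.957) and Sf3a3 (0.95).

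Some of the 10 genes share sequence or position with others, which bears on how reads were assigned, and whether the counting used strand is not given in the sources used here. On GRCm38, Ccnb1 lies at chr13:100778650-100786570 on the minus strand, and 28.6% of the 100-base windows of its longest transcript also occur in the copies Ccnb1-ps, Gm12856, Gm4870 and Gm8416. Gm12856 had 0 to 2 counts per library and Gm4870 0 to 1, and reads that fit several copies may have been dropped or split, so the level of Ccnb1 is uncertain. Ccnb2, at chr9:70407692-70421547 on the minus strand, shares 0.0% of its windows. Only exact matches of whole windows were counted, and the copy Ccnb2-ps had 5 to 13 counts per library. Ccna2, at chr3:36564865-36572150 on the minus strand, shares 14.4% with Exosc9 on the opposite strand. Exosc9 had 26.1 to 39.2 CPM and a log2 range of 0.35 over litters (adjusted p = 0.0485), with a difference of 0.21 in litter 3 (adjusted p = 0.074), where Ccna2 fell.

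Ccnd1, at chr7:144929931-144939925 on the minus strand, shares 24.9% with Oraov1 on the opposite strand, which had 8.63 to 16.1 CPM, above Ccnd1 in each library. Oraov1 itself differed between litters (range 0.64, adjusted p = 0.0214). It fell by 0.52 in litter 3 (adjusted p = 0.00697), as Ccnd1 did, and its difference in litter 2, where Ccnd1 was highest, was 0.05 (adjusted p = 0.856). If the counting ignored strand, the low level of Ccnd1 could hold reads of Oraov1, and this was not tested. Ccne2, at chr4:11191351-11204779 on the plus strand, shares 14.3% with Ints8, which had 24.2 to 29.5 CPM and did not differ past the threshold between litters (adjusted p = 0.232). Cdk4, at chr10:127063534-127067920 on the plus strand, shares 27.7% with Tspan31, which had 31.9 to 45.6 CPM and fell by 0.31 in litter 3 (adjusted p = 0.0165), where Cdk4 had a difference of -0.17. Ccnd2 (chr6:127125162-127152193, minus strand) shares 4.4% and Cdk6 (chr5:3341485-3531008, plus strand) 0.1% of their windows with predicted genes that had 0 counts. Ccnd3 (chr17:47505051-47599691, plus strand) and Ccne1 (chr7:38097984-38107534, minus strand) share 0.0% of their windows. By position, exons of Ccnd3 overlap Bysl on the opposite strand over 361 bases, or 4.1% of its exon bases, and Bysl had 22.6 to 30.8 CPM with no litter difference past the threshold (adjusted p = 0.415). Exons of Ccnd2 overlap 9330179D12Rik on the opposite strand over 368 bases, and this gene had 15 to 48 counts per library.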

How the data were processed

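RNA was measured in 8 libraries of purified cardiomyocytes, and 48440 entries with whole-number read counts per gene symbol were deposited by the authors. STAR 2.7.3a and the mouse build mm10 are named, per the submitters' processing notes. The counting program, the annotation and the use of strand are not given in the sources used here. Per the labels' protocols a stranded total RNA kit was used on RNA that the labels also call poly(A) RNA. There were 0 columns of other samples.

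The low-count filter was filterByExpr with sex as the group, 13771 entries passed it, and scaling was by TMM (edgeR 4.0.16, limma 3.58.1, R 4.3.3). Sexes were compared with edgeR's quasi-likelihood F test without a litter term (6 residual degrees of freedom). Litters were compared in a model with sex (3 residual degrees of freedom), by the 3 litter coefficients together and by each litter minus the mean of the other 3. P-values were Benjamini-Hochberg adjusted over all tested genes, and 0.05 was the threshold. SE is the absolute log2 difference divided by the square root of F. The 95% intervals use the residual degrees of freedom alone and are wider than the moderated test. Each library is 1 heart, and no further replicate of a heart was used.

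Alternatives were library size alone, DESeq2 1.42.0, no filter beyond 1 count, a mean of at least 50 counts, leaving out each library and each litter, leaving out 37 mitochondrial genes, thinning to the smallest total, litter as a block, and another gene length. Comparisons of neighbouring litters and the lists without litter 3 were added after the data were seen. The 10 genes, the lists and the tests were chosen with earlier results of these data known. Named genes were the 10 genes, Cdk1 and Cdk2, up to 3 genes with the largest litter range past the threshold from each list, any gene of a list past the threshold by sex, and the 3 genes most correlated with each of the 10 (log2 CPM, prior count 2). For Ccne1, 1 gene that this rule names is not reported here. Further names were chosen after their values were seen, namely Cdkn1b, the NF-Y subunits, marker genes and genes that share sequence.

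Per the labels a sample's number is its litter, so numbers pair a male with a female. Sex-centred correlations over genes were 0.506, 0.503, 0.696 and 0.367 within litters 1 to 4 and -0.482 to 0.27 between litters. Chi-square per degree of freedom between libraries of 1 sex was 9.56 to 44.9, so no library repeated another. The steps were tested on simulated counts of 13654 genes with 200 changed by 1 on the log2 scale. The litter test recovered 94.5% with 0.526% of calls false, the test of litter 3 95.5% with 1.04%, the sex test 98% with 5.77%, and the sex test with litter 97.5% with 4.88%. Counts simulated for the sex tests held no litter differences and used a common dispersion. Their recovery therefore does not carry over to the sex test without a litter term for genes that differed between litters. Exon lengths and positions come from GENCODE M21 on GRCm38, and promoters from RefSeq on GRCm38.p6.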

Additional observations from a re-analysis of the deposited data

How the results depend on the processing

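Of 1530 values of the 10 genes under the alternatives, 1386 kept their side of the threshold, 76 lost and 64 gained a call, and 4 called values changed sign, all without litter 3: for litter 2, Ccna2 at -0.15 and Ccnb1 at -0.02, and for litter 4, Ccna2 at -0.65 and Ccnb1 at -0.87. Of the 1386, 92 values that lay past the threshold in neither fit changed sign. Ccna2, Ccnb1 and Ccnb2 passed the litter test and the tests of litters 1 and 3 in each alternative run. With the replicate block the sex test called 29 genes in place of 6, and it called 0 of the 10 genes, as without it. Without a filter on counts litter 2 differed in 1249 genes, litter 1 from litter 2 in 702 with 5 of the 10, and litter 2 from litter 4 in 1549 with 6 of the 10. With a mean of at least 50 counts litter 2 differed in 345 genes. Litter 1 against litter 2 gave 1 of the 10 with DESeq2, and litter 2 against litter 4 gave 5 with library size alone. Gene length by the longest transcript gave shares of 52.7% for Ccnd2, 45.3% for Ccnd3 and 12.6% for Cdk6, and 7.29 and 35.4 per 100 of D cyclins for the E and the mitotic cyclins. Leaving out 1 library gave 2964 to 4097 genes by litter, 359 to 1869 for litter 1 (3 to 8 of the 10), 153 to 752 for litter 2 (1 to 5), 1704 to 3791 for litter 3 (4 to 7) and 322 to 1302 for litter 4 (1 to 3), and among neighbours 2 to 271 for litter 1 against 2 (0 to 3), 209 to 1108 for litter 2 against 4 (1 to 6) and 1373 to 2932 for litter 4 against 3 (3 to 6). Leaving out a whole litter gave 1898 (without litter 3) to 4586 genes by litter, 977 to 2906 for litter 1 (6 to 9), 271 to 1407 for litter 2 (2 to 6), 2973 to 4177 for litter 3 (4 to 8) and 1068 to 1984 for litter 4 (2 to 6), and among neighbours 243 to 279 (2 to 3), 642 to 1083 (2 to 6) and 2419 to 2931 (4). By sex these gave 5 to 8 genes and 0 of the 10. Where a library was left out, the remaining library of its litter was assumed to vary like the other litters. The cause of these changes was not tested. The lowest counts in a library were those of Ccnd1 and Ccnb1, at 36 and 42.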
